A study of Mus musculus with 8 samples.

Results

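The semaphorins, plexins and neuropilins form a family of guidance ligands and their receptors, and 33 genes of it were measured among 19938 genes on the arrays. Members were taken by gene symbol: semaphorins of classes 3 to 7 (20 genes), plexins A to D (9 genes), the neuropilins Nrp1 and Nrp2, and Plxdc1 and Plxdc2, which share a short domain with plexins. The rule itself used no measured value, but it was set with earlier results of these data known. The 33 genes had 35 probe sets, and each gene is represented by its brightest probe set on average.

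Semaphorins are secreted or membrane-bound proteins that steer axons and migrating cells, mostly by repulsion, through plexins, whose intracellular part acts on small GTPases and so on the cytoskeleton and on adhesion. Secreted class 3 semaphorins bind mainly to a neuropilin that pairs with an A or D plexin, whereas semaphorins of classes 4 to 7, which sit in the membrane, bind plexins directly. Neuropilins also bind vascular endothelial growth factors (VEGF) beside the VEGF receptor kinases, and in liver neuropilin 1 is known on both stellate and sinusoidal endothelial cells.

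The cells were hepatic stellate cells, the vitamin A storing pericytes of the liver sinusoid, sorted by flow cytometry on retinoid autofluorescence from mice of C57BL/6J background, and the series title asks about their activation after deletion of Lhx2. The knockout group held 4 arrays (replicates 5 to 8) from Mx1Cre+ mice with floxed Lhx2 (Lhx2 f/f). The control group held 4 arrays (replicates 1 to 4) from Lhx2 f/f mice without Cre. Mice of both groups had been treated with poly(I:C), an inducer of interferon, 3 times, and cells were taken 2 weeks afterwards. The Mx1 promoter answers to interferon in many cell types, so loss of Lhx2 from stellate cells and from other liver or blood cells cannot be told apart, nor can loss of Lhx2 and presence of Cre. Ages and sexes of the mice were not given in the sources used here. Whether arrays came from different mice is not stated either, so p-values cover array-to-array spread, perhaps only a technical one.

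Values are log2 expression, on which 1 unit is a doubling. Lhx2, a LIM homeobox transcription factor, had levels of 11.09, 11.24, 11.35 and 11.49 on the knockout arrays, against 12.07, 11.88, 11.94 and 11.92 on the control arrays, a difference of -0.66 (SE 0.09, limma adjusted p = 0.00136). The exact two-sided permutation test over the 70 assignments of the arrays gave 0.0286, the smallest value this design allows. The probes may lie outside the deleted part, so this checks the labels only in part. The knockout level of Lhx2 was still 63.3% of the control level, and how complete the deletion was cannot be read from these values. As a guide to dim signal, the 95th percentile of 1194 olfactory and vomeronasal receptor genes, taken as silent in these cells, was 6.77, called the dim level below. Of 12 stellate markers 11 were measured, each above the dim level, with mean scores of 13.07 to 13.08 on the knockout arrays and 13.21 to 13.29 on the control arrays, so the groups did not overlap. Of these 11 markers, Reln, Hgf, Hand2 and Pth1r fell and none rose. Scores of other cells varied between arrays. The mean of 12 hepatocyte markers was 9.23 to 10.73 in the knockout group and 8.84 to 10.96 in the control group, and that of 12 sinusoidal endothelial markers 8.53 to 9.83 in the knockout and 8.57 to 11.12 in the control group. No hepatocyte marker passed in limma (1 had an unadjusted p under 0.05). Of the endothelial ones Clec4g fell and 11 did not pass. All 12 endothelial differences were below 0, with a median of -0.72 beside -0.017 over all genes. The mean of 10 Kupffer cell and macrophage markers was 7.30 to 7.74 in the knockout group and 7.35 to 8.22 in the control group. Of them Cd68 fell and 9 did not pass, with 5 differences above 0 and 5 below. Control 1 had the highest hepatocyte and control 4 the highest endothelial score. Of the 7 measured lymphocyte markers 6 averaged below the dim level. The mean of 10 portal fibroblast markers was 8.47 to 8.67 in the knockout group, above the control range of 7.82 to 7.97. Of the 10, Cd34 (difference 3.08), Dpt (2.28), Eln (0.81) and Mfap4 (0.39) rose and 6 did not pass. The differences of 4 of the 10 were negative, with Entpd2 lowest at -0.29.

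The family split. Plxna4, Sema5a, Nrp1, Plxdc2 and Sema3a rose in the knockout, whereas Sema4d, Sema3f, Sema3d, Sema7a, Plxnb1, Sema6d, Plxnd1 and Plxnc1 fell. These are 5 risen and 8 fallen members of 33 at an adjusted p under 0.05, and 20 did not pass. Called members made up 39.4% of the family, where 7.38% of all genes tested were called (3.76% higher and 3.63% lower). Among genes with a mean above the dim level the called share was 10.4%, and 30 of the 33 members averaged above that level. The groups did not overlap for 14 members, the 13 called ones and Plxna1, which is 42.4% of the family against 12.7% of all genes. The median difference was -0.08 over the family and -0.017 over all genes. In sorted bulk cells, a change in the share of a cell type and in RNA per cell cannot be told apart.

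**Figure D1:**
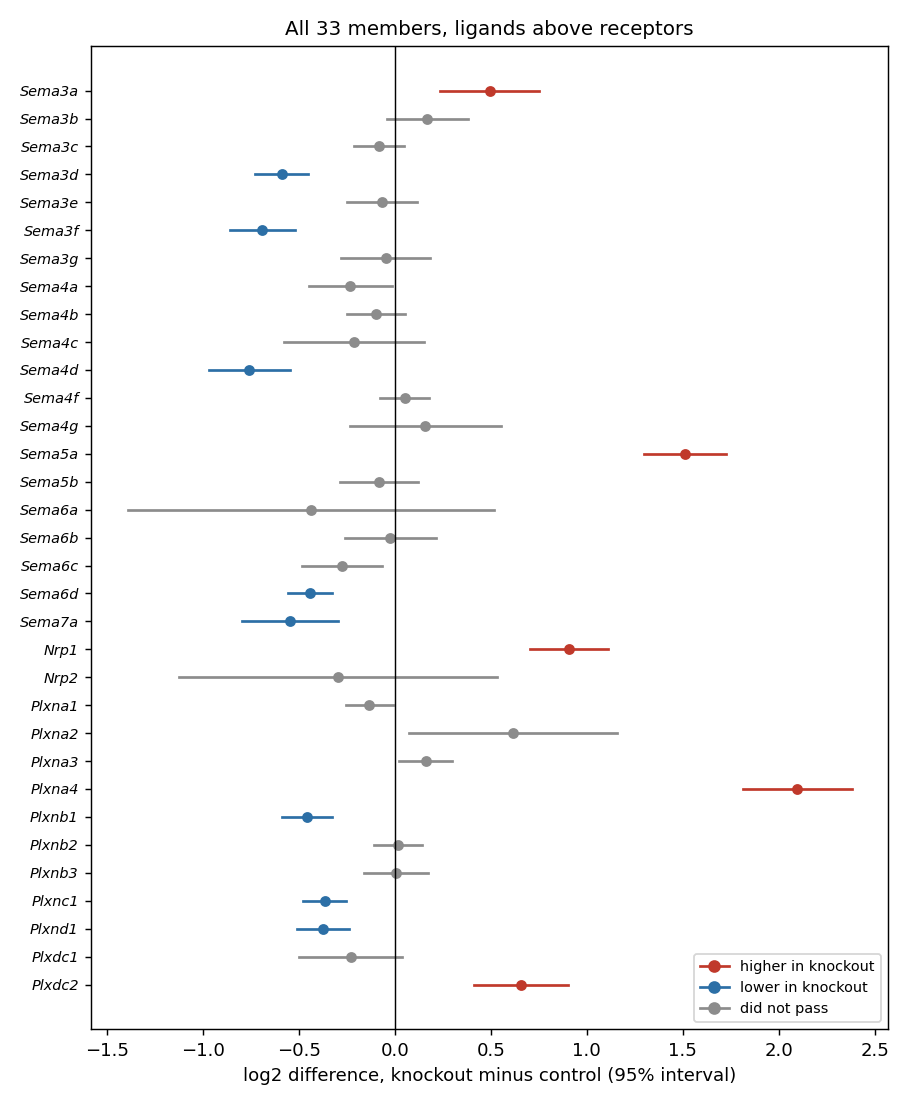
Log2 difference, knockout minus control, of each of the 33 genes (x axis). Semaphorins are in the upper rows, and neuropilins, plexins, Plxdc1 and Plxdc2 in the lower rows. Points are limma estimates and lines 95% intervals. The points farthest to the right are Plxna4 at 2.10 and Sema5a at 1.51, and the widest grey intervals belong to Sema6a and Nrp2.

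The promoters of the risen members were read for the binding letters of LIM homeodomain factors, since the deleted gene encodes one. RefSeq windows of 300 bases (250 before and 50 after the annotated start, GRCm38.p6) were at hand for 26 of the 33 members, 37 windows in all, and for 3 of the 5 risen genes. The palindrome TAATTA occurred in 0 of the 37 windows and in 5.29% of all 32851 windows. Its core TAAT, on either strand (ATTA on the other), occurred in 16 of the 37 (43.2%) and in 58% of all windows. The TAATTA palindrome contains both forms of the core. The windows of these 3 risen members, Sema3a, Sema5a and Nrp1, are shown because their changes are described next, each on the + strand, with the core in capitals.
Sema3a (chr5:13396534-13396833): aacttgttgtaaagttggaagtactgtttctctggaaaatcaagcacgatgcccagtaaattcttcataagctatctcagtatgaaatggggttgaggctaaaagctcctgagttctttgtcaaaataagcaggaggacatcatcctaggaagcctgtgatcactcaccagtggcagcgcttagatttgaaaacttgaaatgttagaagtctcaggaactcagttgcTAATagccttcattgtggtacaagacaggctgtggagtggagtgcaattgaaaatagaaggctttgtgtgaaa
Sema5a (chr15:32244563-32244862): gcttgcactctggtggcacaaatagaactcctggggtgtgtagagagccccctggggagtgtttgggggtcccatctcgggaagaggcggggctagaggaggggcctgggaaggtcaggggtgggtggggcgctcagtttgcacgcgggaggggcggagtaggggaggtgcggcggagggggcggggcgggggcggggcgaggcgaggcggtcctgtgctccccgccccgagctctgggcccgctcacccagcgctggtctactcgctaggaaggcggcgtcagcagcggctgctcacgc
Nrp1 (chr8:128358823-128359122): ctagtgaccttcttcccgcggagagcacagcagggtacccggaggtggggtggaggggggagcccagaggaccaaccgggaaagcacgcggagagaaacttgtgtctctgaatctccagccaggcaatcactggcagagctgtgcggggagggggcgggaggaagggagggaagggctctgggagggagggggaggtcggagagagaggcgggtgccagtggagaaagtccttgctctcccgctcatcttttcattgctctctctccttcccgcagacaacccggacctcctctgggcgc
The Sema3a window held the core 1 time and had 41.3% G and C with 2 CG dinucleotides. The Sema5a and Nrp1 windows held it 0 times and had 71.3% and 64% G and C, with 23 and 14 CG dinucleotides, beside a median of 52.7% over all windows. A match or its absence in these letters says nothing of binding.

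Class 3 semaphorins, the secreted ligands, went in both directions. Of 7 measured, Sema3a rose, Sema3d and Sema3f fell and 4 did not pass. Sema3a, the prototype axon repellent and a ligand of neuropilin 1, had levels of 9.23, 9.53, 9.30 and 9.08 on the knockout arrays, against 8.53, 8.95, 8.89 and 8.79 on the control arrays. The lowest knockout array lay just above the highest control array. The rise of 0.49 (SE 0.11, 1.41-fold) had a limma adjusted p of 0.0300. It is the weakest call of the family, since leaving out knockout 5, knockout 6, knockout 7, control 1 or control 4 gave adjusted p-values between 0.0550 and 0.0774. Without control 1 and control 4 together the difference was 0.36 (adjusted p = 0.204).

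Sema3d, a ligand known for roles in heart and vessel development, was at 11.29, 11.42, 11.28 and 11.29 on the knockout arrays, against 11.81, 12.01, 11.97 and 11.86 on the control arrays. The gap between the groups was wider than the spread within either, with knockout 6 the highest of its group. Sema3d fell by 0.59 on the log2 scale (SE 0.06, limma adjusted p = 0.000348). Sema3f, the main ligand of neuropilin 2, had 9.57, 9.64, 9.64 and 9.65 in the knockout group and 10.23, 10.25, 10.24 and 10.54 in the control group. Apart from control 4, which stood above the rest, each group was tight. Its difference was -0.69 (SE 0.07, limma adjusted p = 0.000434), so that levels were 1.61-fold higher in control arrays.

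The other class 3 ligands gave no call. Sema3c averaged 5.89 ± 0.06 and 5.97 ± 0.09, and Sema3e, the ligand that binds plexin D1 without a neuropilin, 6.26 ± 0.13 and 6.32 ± 0.11, in knockout and control arrays (SD, n = 4 each). Both stayed below the dim level, so a change in them would be hard to see. Sema3b (difference 0.17, 95% interval -0.04 to 0.38) and Sema3g (-0.05, -0.28 to 0.18) lay above it. In the RefSeq gene order of mouse assembly GRCm38.p6, Sema3d and Sema3a are next to each other with 0 protein-coding genes between, Sema3e follows after 3 more genes and Sema3c after a further 15. The 2 adjacent genes thus moved in opposite directions. Sema3b and Sema3f, with 3 genes between them, differed by 0.17 and -0.69.

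**Figure D2:**
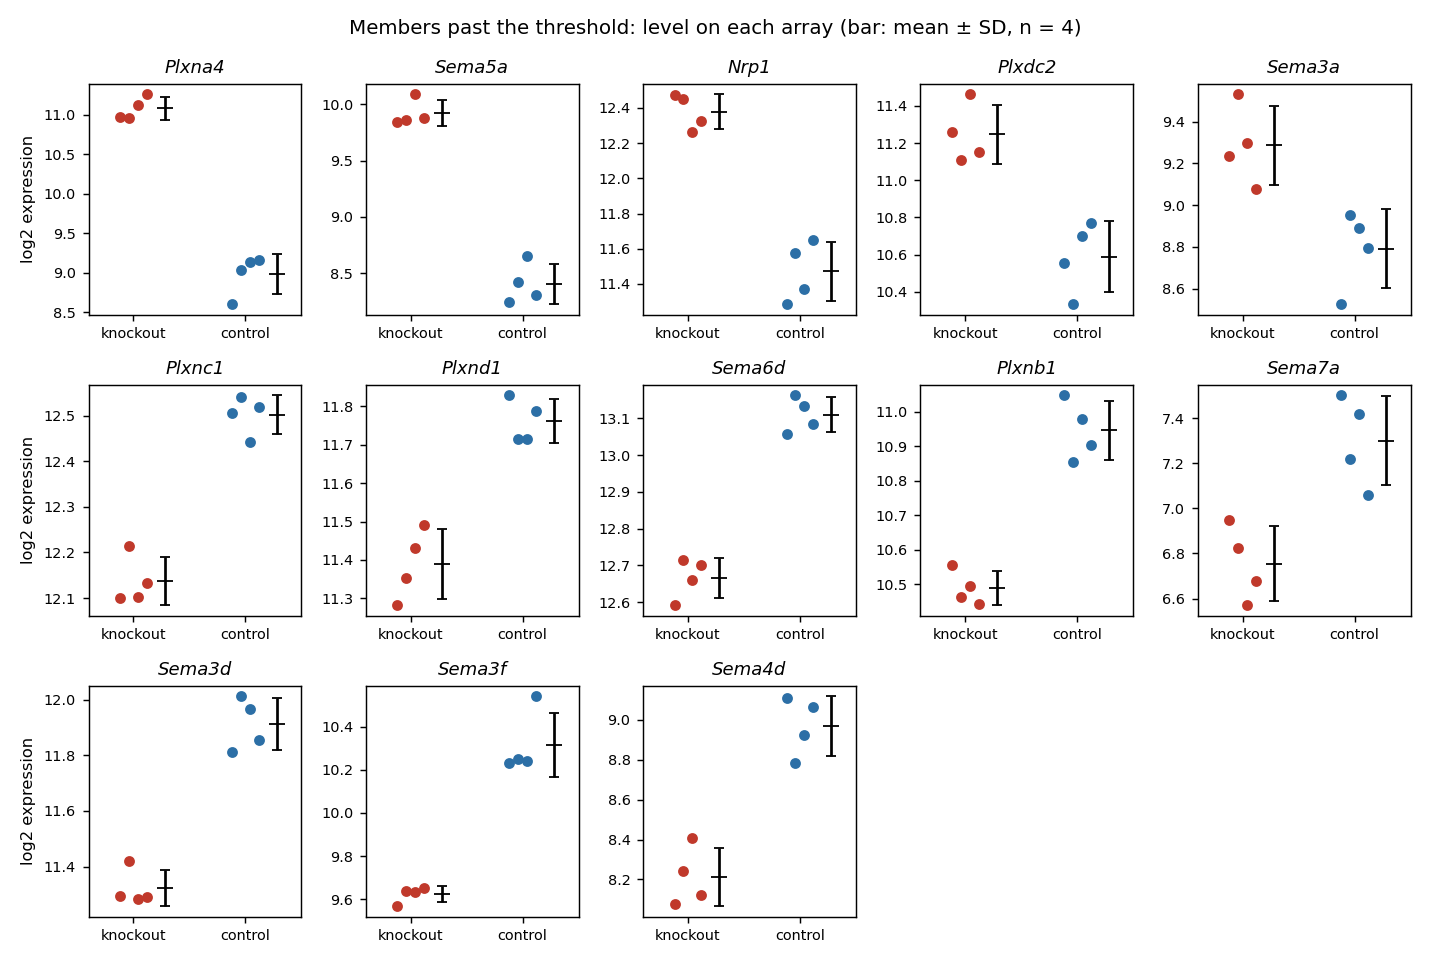
Log2 expression (y axis, scaled per gene) of the 13 genes past the threshold on each array, knockout in red on the left and control in blue on the right, with the mean and SD of 4 arrays as bars. In each panel all knockout points lie on one side of all control points, with the narrowest gaps for Sema3a and Sema7a.

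Among the 13 membrane semaphorins Sema5a rose, Sema4d, Sema6d and Sema7a fell, and 9 did not pass. Sema5a, a class 5 semaphorin with thrombospondin repeats outside the cell, had levels of 9.84, 9.86, 10.09 and 9.88 on the knockout arrays, against 8.25, 8.42, 8.65 and 8.30 on the control arrays. The lowest knockout array lay 1.19 units above the highest control array. The rise of 1.51 (SE 0.10, 2.85-fold, limma adjusted p = 1.25e-05) was the 74th largest absolute difference of all genes. Its relative Sema5b had 7.14 ± 0.14 in knockout and 7.22 ± 0.14 in control arrays (SD, n = 4 each), with overlapping groups.

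Sema4d, known as CD100 and the classic ligand of plexin B1, had 8.08, 8.24, 8.41 and 8.12 in the knockout group, against 9.11, 8.78, 8.92 and 9.07 in the control group. The groups were clearly apart, and Sema4d fell by 0.76 (SE 0.09, limma adjusted p = 0.000967), the steepest fall of the family. This rests on 1 of 2 probe sets. The other, which the platform annotation ties to a single predicted transcript, averaged 7.83 in the knockout and 7.82 in the control group, a difference of 0.0093 (adjusted p = 0.974). The 5 other class 4 genes did not pass, with differences of -0.23 for Sema4a, -0.10 for Sema4b, -0.21 for Sema4c, 0.05 for Sema4f and 0.16 for Sema4g, and Sema4f averaged below the dim level.

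Sema6d, a transmembrane ligand of plexin A1, had 12.59, 12.71, 12.66 and 12.70 on the knockout arrays, against 13.06, 13.16, 13.13 and 13.09 on the control arrays. It fell by 0.44 (SE 0.05, limma adjusted p = 0.000627), and both groups were narrow. The 3 other class 6 genes had differences below 0 without passing: Sema6a -0.44, Sema6b -0.02 and Sema6c -0.28 (adjusted p = 0.129, 95% interval -0.48 to -0.07). The 2 probe sets of Sema6b held identical values. Sema7a, which is anchored to the membrane by a lipid and binds plexin C1 and integrins, had 6.95, 6.82, 6.57 and 6.68 in the knockout group, against 7.50, 7.22, 7.42 and 7.06 in the control group. The difference of -0.55 (SE 0.11, limma adjusted p = 0.0168) ended at a knockout mean of 6.76, under the dim level, so its size is uncertain. Without knockout 8 its adjusted p was 0.0522.

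Among the receptors 1 plexin and 1 neuropilin rose, and 3 plexins fell. The largest change of the family was that of Plxna4, the A plexin that joins neuropilin 1 in the receptor for Sema3a and also binds class 6 semaphorins. Its levels were 10.98, 10.96, 11.12 and 11.26 on the knockout arrays, against 8.60, 9.04, 9.13 and 9.15 on the control arrays. The groups were 1.81 units apart at their nearest arrays, with control 1 the lowest array. Plxna4 rose by 2.10 (SE 0.13, 95% interval 1.82 to 2.38), or 4.28-fold, with a limma adjusted p of 9.18e-06, the 34th largest absolute difference of all genes. It was called under each of the 18 alternatives that refit it, with differences of 1.97 to 2.28.

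The other A plexins did not pass. Plxna1 had 11.69, 11.69, 11.69 and 11.75 in the knockout group, against 11.95, 11.78, 11.84 and 11.77 in the control group, so the groups were apart by a narrow margin at a difference of -0.13 (limma adjusted p = 0.246). Plxna2, a receptor for class 6 semaphorins, had 8.29, 8.65, 8.71 and 8.91 on the knockout arrays, against 7.64, 8.25, 7.54 and 8.67 on the control arrays. Control 4 reached the knockout range, and the difference of 0.62 (95% interval 0.08 to 1.16) had an adjusted p of 0.209. Without control 4 it was 0.83 (limma adjusted p = 0.0414). Plxna3 differed by 0.16 (95% interval 0.02 to 0.30).

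Nrp1, the co-receptor for Sema3a and for VEGF, had 12.47, 12.45, 12.27 and 12.33 in the knockout group, against 11.29, 11.57, 11.37 and 11.65 in the control group. The groups were 0.615 units apart at their nearest arrays. Nrp1 rose by 0.91 (SE 0.09, 1.88-fold, limma adjusted p = 0.000229). The other neuropilin, Nrp2, had 7.26, 7.71, 7.64 and 8.27 on the knockout arrays, against 7.24, 8.52, 7.42 and 8.89 on the control arrays. These groups overlapped fully, and the 95% interval of the difference of -0.30 ran from -1.12 to 0.53.

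Plxnb1, Plxnc1 and Plxnd1 fell, while Plxnb2 and Plxnb3 did not pass. Plxnb1, the receptor for Sema4d, had 10.56, 10.46, 10.49 and 10.44 in the knockout group, against 11.05, 10.86, 10.98 and 10.90 in the control group, a fall of 0.46 on the log2 scale (SE 0.06, limma adjusted p = 0.00108). Plxnc1, the receptor for Sema7a, had 12.10, 12.21, 12.10 and 12.13 on the knockout arrays, against 12.51, 12.54, 12.44 and 12.52 on the control arrays. It fell by 0.36 (SE 0.05, limma adjusted p = 0.00181), a small shift between 2 narrow groups. Plxnd1, the receptor for Sema3e and a guidance receptor of vessels, had 11.28, 11.35, 11.43 and 11.49 in the knockout group, against 11.83, 11.72, 11.72 and 11.79 in the control group. Its fall of 0.37 (SE 0.06, limma adjusted p = 0.00454) had an adjusted p of 0.0706 without control 1 and control 4. Plxnb2 averaged 12.18 ± 0.01 in knockout and 12.16 ± 0.09 in control arrays (SD, n = 4 each), and the interval of its difference, -0.11 to 0.14, leaves room only for small shifts. Plxnb3 differed by 0.0048 (95% interval -0.16 to 0.17).

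Plxdc2, a transmembrane protein reported as a receptor for pigment epithelium-derived factor and not for semaphorins, had 11.26, 11.11, 11.46 and 11.15 on the knockout arrays, against 10.55, 10.33, 10.70 and 10.77 on the control arrays. The rise of 0.66 (SE 0.11, 1.58-fold) had a limma adjusted p of 0.00527. Plxdc1, known as tumor endothelial marker 7, had 6.87 ± 0.03 in knockout and 7.10 ± 0.28 in control arrays (SD, n = 4 each), close to the dim level, and did not pass (adjusted p = 0.399). The knockout arrays, in which Plxna4, Sema5a, Nrp1, Plxdc2 and Sema3a rose, also had the higher portal fibroblast score. Likewise, the arrays with the 8 falls had the lower stellate marker score. Both scores and all called members separate the groups, so any risen or fallen gene would match 1 of them in this way. The part of either cell type in these changes was not tested.

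Set side by side with their receptors, the ligands did not all share a direction with them. For the Sema3a receptor, the ligand (difference 0.49), Nrp1 (0.91) and Plxna4 (2.10) rose, while Plxna1, Plxna2 and Plxna3 did not pass at -0.13, 0.62 and 0.16. For the Sema4d pair both ligand (-0.76) and Plxnb1 (-0.46) fell, while Plxnb2 was at 0.018. For the Sema7a pair both ligand (-0.55) and Plxnc1 (-0.36) fell. Sema3f (-0.69) fell beside Nrp2, which did not pass. Sema3d fell beside Nrp1, which rose, and Plxnd1, which fell. Sema5a rose by 1.51 beside Plxnb3 at 0.0048, Plxna1 at -0.13 and Plxna3 at 0.16, none of which passed. The risen Plxna4 stood beside Sema6a (-0.44) and Sema6b (-0.02), which did not pass. Sema6d fell beside Plxna1 at -0.13. No pair was tested as a pair.

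Nrp2 and Sema6a, the members with the widest intervals, varied along with endothelial markers. Sema6a had 8.39, 9.03, 8.90 and 9.43 on the knockout arrays, against 8.19, 9.95, 9.04 and 10.32 on the control arrays, with controls far more spread than knockouts. The endothelial scores of the same arrays were 8.53, 9.47, 9.23 and 9.83 in the knockout group and 8.57, 10.62, 9.48 and 11.12 in the control group. Within each group, arrays ranked by Sema6a or by Nrp2 had the order of that score. Sema3f did so too, though its knockout arrays were nearly level. So were its levels on control 1, control 2 and control 3 (10.23, 10.25 and 10.24). The same order held for 3 of 33 members and for 0.557% of all genes. In the control group the hepatocyte scores were 10.96, 9.69, 10.63 and 8.84, the exact reverse of the endothelial order. A rise with the endothelial score and a fall with the hepatocyte score cannot be told apart in that group. With hepatocyte and endothelial scores as covariates, Sema6a differed by 0.13 (SE 0.07, limma adjusted p = 0.315) in place of -0.44 (SE 0.42), and Nrp2 by 0.17 (SE 0.14, adjusted p = 0.516). In that fit Plxna2 differed by 0.91 (SE 0.13, adjusted p = 0.00586), Sema3a had an adjusted p of 0.0763, and the 12 other called members were still called.

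**Figure D3:**
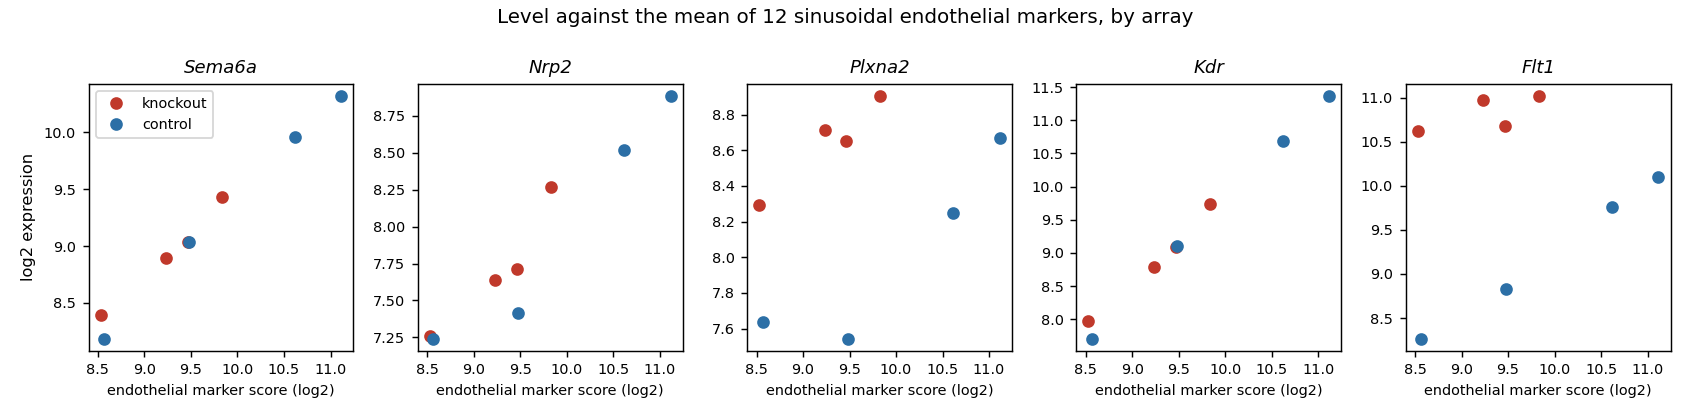
Log2 expression (y axes) of Sema6a, Nrp2, Plxna2, Kdr and Flt1 against the mean log2 level of 12 sinusoidal endothelial markers (x axis), 1 point per array, knockout in red and control in blue; Kdr is itself one of the 12 markers. Sema6a, Nrp2 and Kdr climb with the score in both groups along about one line, whereas the knockout points of Flt1, from 10.63 to 11.02, lie above all control points at any score.

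Among genes that work with the family, called shares were near that of all genes. Of 18 co-receptors and partners 2 rose and 16 did not pass, a share of 11.1% beside 7.38% of all genes and 10.4% of those above the dim level. Ptk7, a pseudokinase of planar polarity that associates with plexin A1 in frog embryos, had 8.95, 8.98, 9.19 and 9.01 in the knockout group, against 8.41, 8.40, 8.29 and 8.52 in the control group, and rose by 0.63 (SE 0.07, limma adjusted p = 0.000522). Cd44, the hyaluronan receptor, rose by 0.30 (adjusted p = 0.0305), a call lost without knockout 5, 7 or 8 or without control 1, 2 or 4 (adjusted p up to 0.0877). Met and Erbb2, receptor kinases that associate with B plexins, differed by 0.05 and -0.03. Met averaged 5.64 in the knockout and 5.59 in the control group, below the dim level, so a change in it would be hard to see.

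Of 32 measured intracellular signalling genes 1 rose, 3 fell and 28 did not pass, a share of 12.5% beside the 7.38% of all genes. The 2 FARP exchange factors, which are known to bind A plexins, went in opposite directions. Farp2 rose by 0.29 (SE 0.06, limma adjusted p = 0.0218) and Farp1 fell by 0.33 (SE 0.06, adjusted p = 0.00681). Cfl1, the actin-severing cofilin, fell by 0.35 (SE 0.07, limma adjusted p = 0.0188), and Rac1, a GTPase that plexins bind, by 0.21 (SE 0.05, adjusted p = 0.0359). Farp1 was called under the 18 alternatives that refit it, at a change smaller than 1.5-fold. Rac1 lost its call when any 1 array was left out (adjusted p up to 0.119), under median centring (0.0566) and with the marker scores as covariates (0.135). Farp2 lost it without knockout 7 or 8 or control 2 or 4 (up to 0.0669), and Cfl1 without knockout 5 or control 4 (up to 0.0581) or with those covariates (0.0833). Without control 1 and control 4 together, Cd44, Farp2, Cfl1 and Rac1 were not called (adjusted p from 0.167 to 0.276). The collapsin response mediators Crmp1 and Dpysl2 to Dpysl5, which relay Sema3a signals in neurons, had differences between -0.35 and -0.07 and did not pass. Crmp1 averaged 6.49 in the knockout and 6.57 in the control group, below the dim level.

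Of 8 measured VEGF ligands and receptors 1 rose and 7 did not pass, a share of 12.5% beside the 7.38% of all genes. Flt1, VEGF receptor 1, had 10.63, 10.68, 10.98 and 11.02 on the knockout arrays, against 8.27, 9.76, 8.83 and 10.10 on the control arrays. The knockout arrays were close together and all higher, while control arrays were spread widely. The control arrays followed the order of their endothelial scores, which is also the reverse order of their hepatocyte scores. Flt1 rose by 1.59 (SE 0.35, limma adjusted p = 0.0243), and by 2.02 (SE 0.16, adjusted p = 0.000231) with the scores as covariates. The call was lost without knockout 5, 6, 7 or 8 or without control 3 (adjusted p up to 0.0697), and under limma's trended robust variance (0.0858). Kdr, VEGF receptor 2 and a marker of endothelium, had 7.97, 9.10, 8.79 and 9.74 in the knockout group, against 7.71, 10.69, 9.11 and 11.37 in the control group, with fully overlapping values. Of the ligands, Vegfa differed by -0.21 and Vegfc by 0.34 (adjusted p = 0.0924).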

How the data were processed

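The deposited log2 values, 1 per probe set and array, were normalized by the authors with the Robust Multichip Algorithm (RMA), per the submitters' processing notes and the labels' protocols. Its version is not stated in the sources at hand, and neither are scan batches, so none could be tested. RMA compresses differences of dim probe sets. From 35556 probe sets, the 21789 with 1 gene symbol in the platform annotation were kept, and the one with the highest mean represented its gene (19938 genes). Knockout was compared with control over all 8 arrays with lmFit and eBayes (limma 3.58.1, R 4.3.3), as a two-sided test; p-values were adjusted over all genes (Benjamini-Hochberg) and called under 0.05, and intervals are 95%. The same step was tested on simulated data, with 50 genes given each size of change. It recovered 76% of log2 changes of 0.5 and 96% to 100% of changes of 1, 2 or 3, with 11 false calls. All members were named, as were called genes of the partner lists, up to 6 a list. Members, lists and alternatives were chosen with earlier results of these data known. Groups came from sample titles. Alternatives were other normalizations, dim-gene filters, variance models, array weights, probe set rules, thresholds and leaving out arrays; 2 more, without control 1 and control 4, and marker scores as covariates, were added after the data were seen.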

Additional observations from a re-analysis of the deposited data

Results flagged for a closer look

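In 82 groups of 4 arrays (the 33 members, Lhx2 and the 7 called partner genes, in each group), 8 held 1 array that stood far from the other 3 by Dixon's criterion, where chance gives about 1 in 20, or 4.1 of 82. In the knockout group, Plxna1 was highest on knockout 8 at 11.75 (next 11.69), Sema3d on knockout 6 at 11.42 (next 11.29) and Sema5a on knockout 7 at 10.09 (next 9.88). In the control group, Plxnb3 was highest on control 2 at 7.48 (next 7.34), Sema3f on control 4 at 10.54 (next 10.25), Sema5b on control 1 at 7.43 (next 7.15) and Cd44 on control 3 at 8.57 (next 8.47). Sema3b was lowest on control 4 at 7.45 (next 7.78).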

How the results depend on the processing

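Of the differences of single genes under the alternatives, 674 kept direction and side of the threshold, 42 lost the call and 2 (Plxna2) gained it. A further 18, of 7 genes not called at any setting (Nrp2, Plxnb2, Plxnb3, Sema3e, Sema3g, Sema6a and Sema6b), changed sign. The risen members numbered 4 or 5 and the fallen 7 or 8 under each alternative except a required change of 1.5-fold, which left 3 fallen. All genes called, 1472, became 775 at a threshold of 0.01, 523 with 1.5-fold required and 776 without control 1 and control 4. Leaving out 1 array gave 1 to 3 risen (4 in all arrays) and 1 to 3 fallen (3 in all arrays) partner genes. These counts were 1 and 1 at 0.01, 2 and 0 with 1.5-fold, and 2 and 1 without control 1 and control 4. Sema4d, a called gene, changed sign to 0.0093 on its second probe set. No paired analysis was possible because the groups share no replicate number. The number of arrays and dim signals (Sema3c, Sema3e, Sema4f, Sema7a) limit precision.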
